A study of Mus musculus with 57 samples.

Results

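Gzmb, which encodes the serine protease granzyme B, and Srgn, which encodes the granule proteoglycan serglycin, were described over 56 single mouse T helper 2 (Th2) cells. They are 2 of the 10565 genes measured, written gzmb and srgn in the deposited table, and they were chosen by name with their levels in these cells already known, so their levels and the genes that go with them are descriptions and carry no test. All cells belonged to 1 condition. They were wild type cells of the C57BL/6 strain, 8 weeks of age, and began as splenic CD4+ T cells. These were activated through CD3 and CD28 in the presence of interleukin-4 and an antibody that neutralises interferon gamma, given interleukin-2 from day 2, kept in culture for 5 days, and stimulated again through CD3 and CD28 before capture on a microfluidic Fluidigm C1 device. By their titles, the cells fall into sets T1 (8 cells) and T2 to T5 (12 cells each), and the meaning of the sets is not given in the labels. Animals or cultures are not told apart in the labels, and the cells therefore count as 1 sample.

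Granzyme B cleaves proteins after aspartate residues, and killer lymphocytes store it in secretory granules and deliver it through perforin into target cells, where it starts apoptosis. Serglycin is a small core protein that carries many negatively charged glycosaminoglycan chains, and these hold positively charged granule proteins such as granzymes, mast cell proteases and chemokines. Activated CD4+ T cells, Th2 cells among them, can also make granzyme B, and serglycin is made by most cells of blood origin.

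The 250 bases before the start of each gene are shown because they let the sequence be read beside the levels of a gene that varied widely between cells and of one that did not. They come from RefSeq on build GRCm38.p6 and are printed 5′ to 3′ along the gene. Gzmb lies on chromosome 14 (chr14:56262335-56262584, minus strand) and Srgn on chromosome 10 (chr10:62527446-62527695, minus strand). RefSeq lists 2 starts for Srgn, and the one farther upstream was used.
Gzmb: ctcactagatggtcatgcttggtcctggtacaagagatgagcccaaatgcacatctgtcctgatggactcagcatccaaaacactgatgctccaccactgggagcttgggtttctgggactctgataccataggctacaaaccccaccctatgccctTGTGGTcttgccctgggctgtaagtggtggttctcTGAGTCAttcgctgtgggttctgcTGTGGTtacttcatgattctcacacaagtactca
Srgn: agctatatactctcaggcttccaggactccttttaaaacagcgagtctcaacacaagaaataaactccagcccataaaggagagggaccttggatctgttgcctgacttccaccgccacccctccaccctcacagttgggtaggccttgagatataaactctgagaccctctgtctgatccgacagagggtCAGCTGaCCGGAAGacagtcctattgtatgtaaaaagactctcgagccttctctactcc
Capitals mark matches, on either strand, to the motifs searched, which were picked after the sequences had been read. The Gzmb sequence held 1 match to the AP-1 motif TGANTCA, 58 bases before the start, and 2 matches to the Runx motif TGTGGT, 93 and 34 bases before it. The Srgn sequence held 1 match to the E-box CAGCTG, 59 bases before the start, and 1 to the Ets motif CCGGAAG, 52 bases before it. No motif overlapped another, and neither sequence held the GATA motif AGATAA. Among 32851 mouse promoter windows of the same length, 6.75% held the AP-1 motif, 14.1% the Runx motif, 13.0% the E-box, 6.91% the Ets motif and 9.99% the GATA motif. A match is a string of letters and not a measured binding site.

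The values are TPM (transcript abundance), a level corrected for transcript length and scaled to 1 fixed total per cell, which the authors rounded to whole numbers. The number of genes at 1 TPM or more ranged from 2679 to 8396 per cell, with a median of 4743.5. Cell T3_2 stood apart: its median Spearman rho with the other cells over all genes was 0.27, against 0.44 for the next lowest cell, and 1 gene, Mtrnr2l, took 20.1% of its TPM. Cell T3_5 had the most genes detected (8396). Srgn had its lowest level in T3_2, and Gzmb was listed at 0 there. Broadly needed genes were listed at 0 in some cells too, since Sdha was detected (1 TPM or more) in 36 cells and Tbp in 28 cells. A value of 0 is therefore given as listed at 0 and not as absence.

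Granzyme B transcript was high in most cells and at or near 0 in the rest. Gzmb was at 1 TPM or more in 49 of 56 cells (87.5%, exact Clopper-Pearson 95% interval 75.9% to 94.8%, counting error only). It was listed at 0 in 7 cells, which were T2_1, T3_1, T3_2, T3_7, T4_3, T4_11 and T5_2. A further 11 cells lay between 1 and 10 TPM, so that 18 cells were at 10 TPM or less. A single cell, T2_10 with 65.0 TPM, lay above 10 and under 100 TPM. The remaining 37 cells held 100 TPM or more: 8 cells from 100 to under 1000 TPM, 25 from 1000 to under 10000 TPM, and 4 at 10000 TPM or more. The level that separates them, 100 TPM, was set after this gap had been seen.

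Over all cells the Gzmb level had a median of 1219.5 TPM, quartiles of 3 and 3839.5 TPM, and a mean of 3241 ± 4976 TPM (SD over 56 cells). Its mean ranked 30th of all genes. Without set T3 the median was 2119.5 TPM. Cell T5_4 held the highest Gzmb level, 23103 TPM, which was 18.9 times the median and 12.7% of all Gzmb TPM in the table. The next were T2_3 with 22348 TPM, T5_10 with 13557 TPM and T5_1 with 10049 TPM. These and the other cells among the 10 highest carried 65.2% of the total. Within a cell, Gzmb ranked between 2nd and 5482nd, with a median rank of 138, and it was among the 10 highest genes in 12 cells. The rank of 5482 was in T2_1, where Gzmb was listed at 0 and 5481 genes were detected. A gene listed at 0 shares its rank with all others at 0, so that rank follows the number of genes detected.

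Serglycin transcript was high in nearly every cell. Srgn was at 1 TPM or more in 56 of 56 cells (100%, interval 93.6% to 100%), from 693 TPM in T3_2 to 32625 TPM in T5_4. Its level had a median of 10568.5 TPM, quartiles of 7085.5 and 13458.5 TPM, and a mean of 11567 ± 6537 TPM (SD over 56 cells), the 4th highest mean of all genes. Srgn was at 10000 TPM or more in 32 cells, from 1000 to under 10000 TPM in 23 cells, and below that in T3_2 only. It was among the 10 highest genes of 45 cells and the 20 highest of 52 cells, and its median rank within a cell was 5. On average it made up 1.16% of a cell's TPM, against 0.324% for Gzmb. Its highest cell was 3.09 times its median. The same cell, T5_4, was the highest for both genes.

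**Figure D1:**
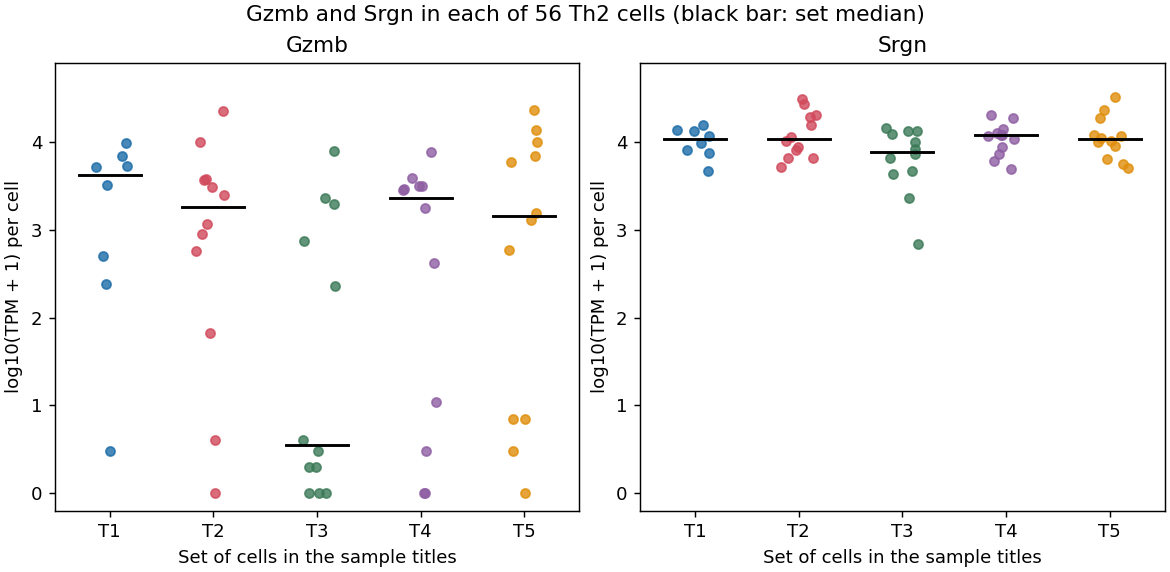
Level of Gzmb and Srgn as log10(TPM + 1), 1 point per cell, by the set in the sample titles, with the set median as a black bar. Gzmb falls into cells at 10 TPM or less and cells at 100 TPM or more in every set with 1 cell between them, and Srgn stays above 1000 TPM in all cells but T3_2.

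Both kinds of Gzmb cell occurred in every set. In T1 the Gzmb level had a lowest, median and highest value of 2.00, 4238.5 and 9839 TPM, and 7 of 8 cells held 100 TPM or more. In T2 the values were 0, 1815.5 and 22348 TPM (9 of 12 cells at 100 TPM or more), and in T3 they were 0, 2.50 and 8009 TPM (5 of 12 cells). In T4 they were 0, 2294.5 and 7670 TPM (8 of 12 cells), and in T5 0, 1429 and 23103 TPM (8 of 12 cells). T3 thus had the lowest median, T1, T4, T2 and T5 stood above it in falling order, and the ranges of all sets overlapped. T3 also had the lowest median number of genes detected, 4272.5, against 4694 to 4837 in the other sets, and the part of this in its Gzmb median was not tested. Since the labels do not say what a set is, no test between sets was made.

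Srgn differed less between sets. Its lowest, median and highest values were 4682, 10735 and 15486 TPM in T1, 5159, 10901 and 30916 TPM in T2, and 693, 7773.5 and 14296 TPM in T3. In T4 they were 4895, 11902.5 and 20320 TPM, and in T5 5110, 10792 and 32625 TPM. T3 again had the lowest median, and all sets overlapped. The rho of a level with the number of genes detected was 0.22 for Gzmb and 0.29 for Srgn, over the same 56 cells.

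Gzmb varied far more between cells than most genes of its level, and Srgn did not. Variation was taken as CV2, the square of SD over mean, and its excess as the log2 ratio of a gene's CV2 to a running median of CV2 along the genes ordered by mean TPM. Gzmb and Srgn both lie in the end window of highest means, so both were set against the same CV2 of 0.261, and so were the genes next to them in mean level. Gzmb had a CV2 of 2.36 and an excess of 3.18, rank 55 of 7871 genes with 10 or more cells detected. Of those genes, 13.1% had an excess above 1. Srgn had a CV2 of 0.319 and an excess of 0.29, within the range from -1 to 1. Since both genes were chosen with their levels known, these ranks are descriptions.

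Genes close to Gzmb in mean level were mostly steadier. The excess was -0.19 for Sod1 (superoxide dismutase), -0.47 for the ribosomal protein gene Rps20 and -0.04 for the respiratory chain gene Cox6a1, which came next below it in mean level. Next above it, the excess was -0.71 for Npm1 (nucleophosmin), 0.79 for the transcriptional inhibitor Id2 and 1.28 for the interferon response gene Ifi27l2a. Around Srgn stood genes of both kinds. B2m, the light chain of MHC class I (excess -0.76), Actb, cytoskeletal actin (-0.21), and Tnfrsf4, the costimulatory receptor OX40 (0.38), varied about as much as the running median or less. The cytokine gene Il3 (4.42), the chemokine gene Ccl1 (2.38) and Penk, which encodes proenkephalin (1.33), varied more.

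**Figure D2:**
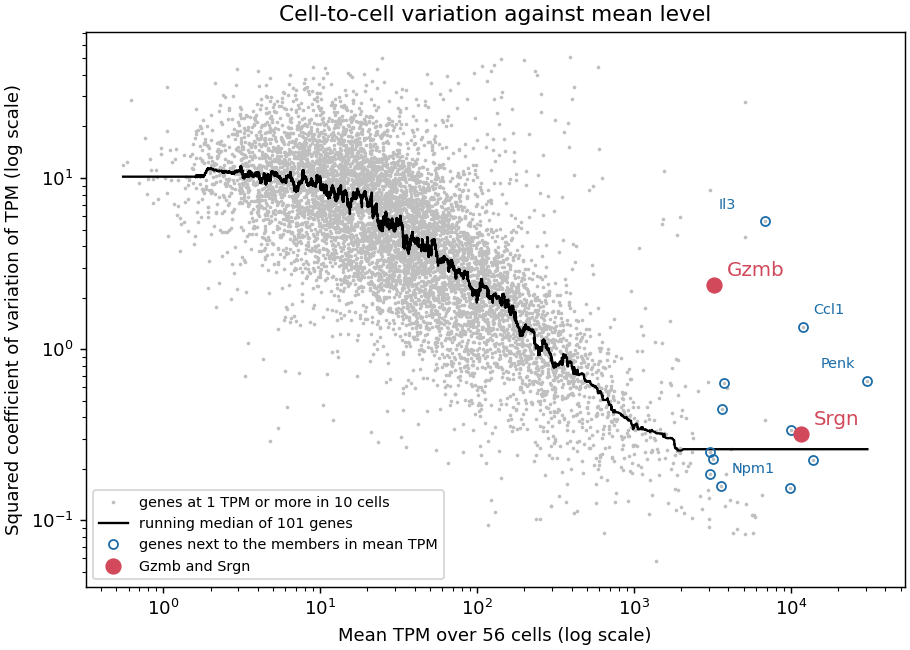
CV2 of TPM against mean TPM over 56 cells, both on log scales, 1 grey point per gene detected in at least 10 cells, with the running median as a black line and the 3 genes next above and below each granule gene in mean level as open circles. Gzmb lies far above the line (excess 3.18 on the log2 scale) and Srgn close to it (0.29). The line is flat above its last full window.

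The levels of the protease and of its carrier had a low rho, and its sign differed between sets. In the 37 cells with Gzmb at 100 TPM or more, the median ratio of Srgn to Gzmb was 3.77. Gzmb exceeded Srgn in 4 cells: T2_3 with 22348 TPM of Gzmb and 6643 TPM of Srgn, T5_1 with 10049 and 8945 TPM, T2_9 with 9898 and 6537 TPM, and T4_2 with 7670 and 7251 TPM. The Spearman rho between both genes was 0.21 and Pearson's r of log2(TPM + 1) was 0.32, as a description over 56 cells that share 1 culture label and a fixed TPM total. Without the 2 cells farthest from the Gzmb median these were 0.20 and 0.31. Of the 5713 other genes that were detected in at least 20 cells, Srgn ranked 683rd by rho with Gzmb.

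Sets T1, T3 and T5 gave a rho between Gzmb and Srgn of 0.19, 0.58 and 0.63, while T2 gave -0.60 and T4 -0.16. In T2, the cells with the most Srgn (T2_11 with 30916 TPM and T2_4 with 27399 TPM) held 889 and 3 TPM of Gzmb. In T5, the cell highest in one was highest in the other. The pooled rho was 0.41 without T2, 0.044 without T3 and 0.061 without T5, so its size rests on which sets enter.

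**Figure D3:**
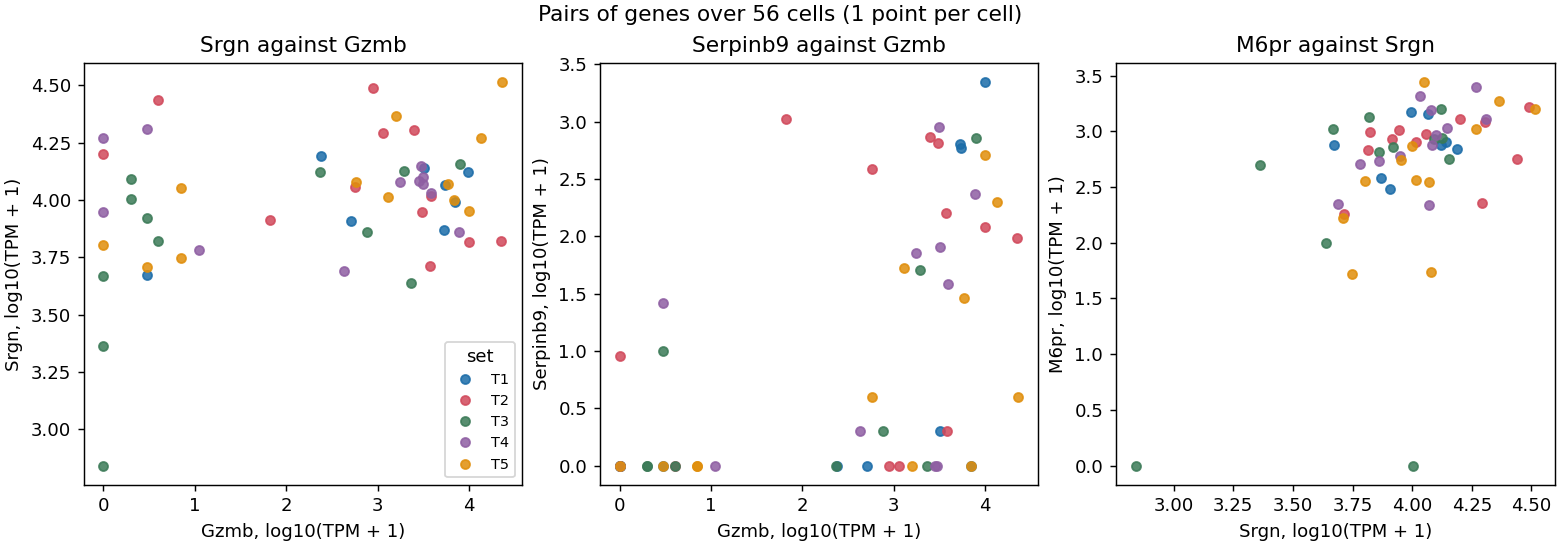
Srgn against Gzmb, Serpinb9 against Gzmb, and M6pr against Srgn, as log10(TPM + 1), 1 point per cell, coloured by set. Srgn runs from 693 to 27399 TPM where Gzmb is at 10 TPM or less, and from 4333 to 32625 TPM where Gzmb is at 100 TPM or more. Serpinb9 is mostly at 0 where Gzmb is at 10 TPM or less. M6pr is at 0 in 2 cells of T3, one of them the cell lowest in Srgn.

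The gene most like Gzmb was the one for its own inhibitor. Serpinb9 encodes a cytosolic serpin that blocks granzyme B and guards cells against their own protease, and its rho with Gzmb was 0.59, the highest of 5713 genes. Serpinb9 was at 1 TPM or more in 30 cells, with a mean of 170 ± 380 TPM (SD over 56 cells), a median of 1 TPM and at most 2207 TPM, in T1_4. Of the 30 cells, 26 were among the 37 cells with Gzmb at 100 TPM or more, where 19.8 would fall if detection were independent. The other 4 were T2_10 with 1045 TPM, T4_9 with 25 TPM, T3_11 with 9 TPM and T2_1 with 8 TPM of Serpinb9, of which T2_10 is the cell in the gap of the Gzmb levels. With Serpinb9 counted from 10 TPM, 20 of its 22 cells had Gzmb at 100 TPM or more, where 14.5 would fall if independent. Not every cell with much Gzmb held it, as T5_4 had 23103 TPM of Gzmb and 3 TPM of Serpinb9.

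By set, the rho of Serpinb9 with Gzmb was 0.61 to 0.67 in T1, T3, T4 and T5 and 0.10 in T2. Given the number of genes detected, the partial rho was 0.56. Centring the ranks within each set gave 0.58, and leaving out cells T3_2 and T3_5 gave 0.57. Its rho with Srgn was 0.13. Of the 50-base words in the Serpinb9 transcripts of GRCm38.p6, 0.378% also occur in its copy Serpinb9b, whose cells numbered 5, and no such word of Gzmb or Srgn occurs in another gene.

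Few other genes followed Gzmb closely. A rho of 0.4 or more was reached by 31 genes (0.543%) and one of -0.4 or less by 3 genes (0.0525%). After Serpinb9 came 2010107H07Rik (rho 0.56), Ddx6, an RNA helicase of processing bodies (0.54), Tgds (0.53), and Sptlc2, a subunit of the enzyme that starts sphingolipid synthesis (0.51). Ndrg1, a gene induced by low oxygen and other stress, and Thoc6, of the complex that couples transcription to mRNA export, were at 0.50 each. Sytl3, which encodes a synaptotagmin-like protein that binds Rab27 on secretory vesicles, stood at 0.47 and was detected in 26 cells, with its highest level (1003 TPM) in T5_4, the highest Gzmb cell. Dnm1l, the mitochondrial fission dynamin (0.47), and the zinc finger gene Zfp263 (0.46) completed the 10 highest. The lowest were the nuclear import gene Tnpo2 (-0.47), the tetraspanin gene Tspan32 (-0.43), the mitochondrial pyrophosphatase gene Ppa2 (-0.41), Gm166 (-0.39) and Phkg2, a subunit of phosphorylase kinase (-0.39). Within single sets these values varied: Tgds was at 0.94 in T5 and -0.07 in T4, while Tnpo2 was below 0 in 5 of 5 sets.

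Of the 10 genes of highest rho with Srgn, 5 were detected in every cell. Over all genes, 398 were detected in every cell, and 5713 entered the comparison with Srgn. A rho with Srgn of 0.4 or more was reached by 40 genes (0.7%) and one of -0.4 or less by 3 genes (0.0525%). The highest was Cd53, a tetraspanin of leukocytes, with a rho of 0.55 and Pearson's r of 0.75, with a mean of 4132 ± 2109 TPM (SD over 56 cells) and no cell without it. It was positive in 5 of 5 sets, from 0.38 in T4 to 0.73 in T3. Ccnd2, the cyclin D2 gene, followed at 0.53.

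M6pr followed with a rho of 0.50. It encodes the cation-dependent mannose 6-phosphate receptor, which carries lysosomal enzymes, granzymes among them, from the Golgi towards lysosomes and granules. M6pr was detected in 54 cells at 848 ± 608 TPM (SD over 56 cells), with a median of 751.5 TPM and at most 2758 TPM, in T5_11, and was listed at 0 in T3_2 and T3_3. Its rho with Srgn was positive in each set, at 0.29 (T1), 0.40 (T2), 0.38 (T3), 0.66 (T4) and 0.57 (T5). Its rho with Gzmb was 0.11. Of its 50-base words, 6.12% also occur in the pseudogene M6pr-ps, so part of its level is uncertain.

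The other genes among the 10 highest for Srgn were Sdf4, a calcium-binding protein of the Golgi (0.48), Areg, the growth factor amphiregulin (0.47), Acsl4, which activates polyunsaturated fatty acids (0.47), and Lilrb4, an inhibitory receptor (0.47). Dap (0.46), Bzw1 (0.46) and Tsr1, needed for the maturation of the small ribosomal subunit (0.45), completed them. The lowest was Atf4, the transcription factor of the integrated stress response (rho -0.48), which was below 0 in 5 of 5 sets. Its highest level, 2272 TPM, was in T1_1, a cell with 4682 TPM of Srgn, the lowest Srgn level in T1. Thap4 (-0.45), Wdr70 (-0.42), the transcriptional inhibitor gene Id3 (-0.38) and Snhg8, a host gene of small nucleolar RNA (-0.38), came next. Among the 10 genes highest for Srgn, rho with Gzmb was highest for Cd53 (0.39) and Ccnd2 (0.34) and lowest for Dap (-0.08).

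**Figure D4:**
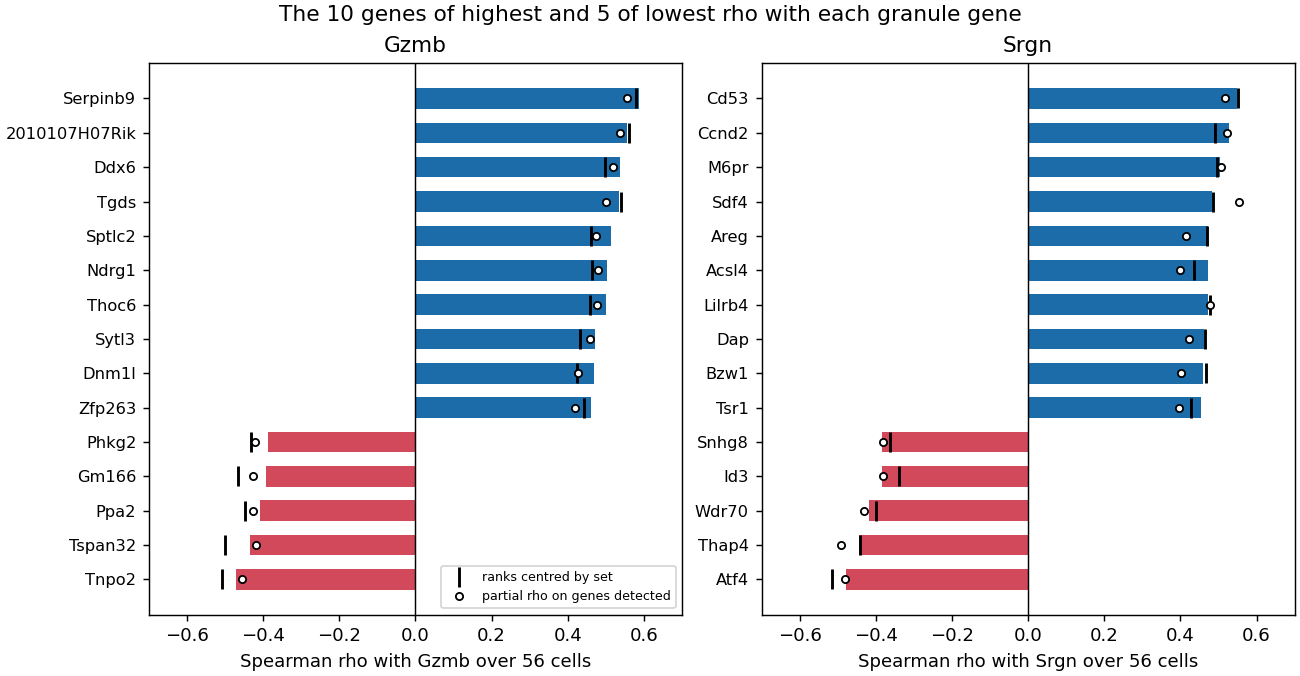
Spearman rho over 56 cells of the 10 genes of highest and the 5 of lowest rho with Gzmb (left) and Srgn (right). Bars give rho over all cells (blue above 0, red below 0), black ticks the value with ranks centred by set and open circles the partial rho given the number of genes detected, and in all 30 rows ticks and circles stay on the side of the bar.

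Of the granzyme family, 3 of the 11 listed genes were in the table, and the others, perforin (Prf1) included, were not analysed here. Gzma, the tryptase granzyme A, was detected in 13 cells at a mean of 133 TPM, and a single cell, T2_3, held 65.0% of it (4846 TPM). Gzmc was detected in 14 cells at a mean of 43.0 TPM, with at most 729 TPM. Against them the mean of Gzmb was 3241 TPM. All 13 Gzma cells and all 14 Gzmc cells were among the 49 cells with Gzmb, where 11.4 and 12.2 cells would fall if detection were independent. Of the 37 cells with Gzmb at 100 TPM or more, 10 held Gzma and 12 held Gzmc, where 8.59 and 9.25 would fall, so 3 Gzma cells and 2 Gzmc cells had less Gzmb than that. Gzma and Gzmc shared 5 cells. Of the 50-base words of Gzmc, 4.14% also occur in other genes and 3.79% in Gzme.

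Proteases and inhibitors of the granule gave the list with the highest median rho with Gzmb among lists with more than 3 genes entered. Of 15 listed genes, 12 were in the table and 8 were detected in at least 20 cells, and their median rho with Gzmb was 0.16, against 0.05 over all 5713 genes. The rho was 0.3 or more for 3 of the 8, Serpinb9 (0.59), the lysosomal protease gene Ctss (0.37) and Serpinb6b (0.34), where 3.66% of all genes reached it. Serpinb6b encodes an inhibitor of granzyme A in the mouse and was detected in 39 cells at a mean of 407 TPM. Of its 50-base words, 2.92% also occur in other genes and 1.915% in Serpinb6c. The count stayed at 3 with TPM rescaled per cell, with ranks centred by set, given the number of genes detected, and without cells T3_2 and T3_5.

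Ctsc, cathepsin C, removes the dipeptide that keeps granzymes inactive. It was detected in 42 cells at a mean of 149 TPM, and its rho was 0.00 with Gzmb and 0.29 with Srgn. Cst7, cystatin F, which inhibits cathepsin C, had a mean of 1808 TPM with no cell listed at 0, and its rho with Gzmb was 0.12. Ctsz (55 cells, mean 623 TPM), Ctsb (54 cells, 235 TPM) and Ctsd (34 cells, 115 TPM) are lysosomal cathepsin genes and had rho values with Gzmb of 0.02, 0.08 and 0.21. Ctsl (10 cells), Serpinb6a (10 cells), Ctsw (6 cells) and Serpinb9b (5 cells) were detected in too few cells to enter. With Srgn, 0 of the 8 genes reached a rho of 0.3, and their median was 0.08, against 0.06 over all genes.

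Among genes for sorting and release of granules, 1 reached a rho of 0.3 with each of Gzmb and Srgn. Of 21 listed genes, 17 entered, with a median rho of 0.08 with Gzmb and 0.03 with Srgn. With Gzmb, it was Rab7 (0.33), the GTPase of late endosomes, where 3.66% of all genes reached 0.3. Of its 50-base words, 11.1% also occur in the pseudogene Rab7-ps1. Without cells T3_2 and T3_5, 0 of the 17 reached 0.3 with Gzmb. With Srgn, 1 reached it, M6pr (0.50), where 4.08% of all genes did. The other mannose 6-phosphate receptor gene, Igf2r, had a mean of 19.4 TPM against 848 TPM for M6pr, and its rho was 0.09 with both. Lamp1, a membrane protein of lysosomes and granules, had a mean of 36.5 TPM and a rho of 0.08 with Gzmb and -0.01 with Srgn. Stx11, a syntaxin needed for granule release in killer cells, was detected in 49 cells at a mean of 236 TPM, with rho values of 0.17 and 0.22. Rab27a, which docks granules at the membrane, was detected in 14 cells and did not enter.

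Enzymes that build glycosaminoglycan chains were far below the serglycin core protein in level. Of 37 listed genes, 29 were in the table and 7 were detected in at least 20 cells, and the summed level of the 29 genes had a median of 435 TPM per cell, against 10568.5 TPM for Srgn. Chsy1, a chondroitin synthase, was the most widely detected, in 55 cells at a mean of 160.5 TPM, with a rho of 0.26 with Srgn and -0.23 with Gzmb. None of the 7 genes reached a rho of 0.3 or -0.3 with Gzmb or Srgn, and their median was 0.11 with Srgn and -0.07 with Gzmb. The summed level of the list had a rho of 0.28 with Srgn.

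Other genes for proteoglycans or for proteins that can carry such chains were also lower than Srgn. Of 16 listed genes 8 were in the table. Cd44, the hyaluronan receptor, was detected in 56 cells at a mean of 350 TPM. Cd74, the MHC class II invariant chain, was detected in 32 cells at a mean of 69.9 TPM, and the glypican gene Gpc1 in 25 cells at 19.5 TPM. Their rho values with Srgn were 0.10, 0.08 and -0.03.

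Genes named as regulators of granzyme B had a median rho of 0.10 with Gzmb, against 0.05 over all genes. Of 33 listed genes 25 entered, and 1 reached 0.3 with Gzmb. It was Stat5a (0.33), a transcription factor downstream of interleukin-2, detected in 53 cells at a mean of 125 TPM. Of all genes 3.66% reached 0.3, and without cells T3_2 and T3_5 none of the regulators entered did. The interleukin-2 receptor genes Il2rg, Il2rb and Il2ra had rho values with Gzmb of 0.26, 0.08 and 0.02, and Il2 itself was at 0.01. Runx3, Batf and Bhlhe40 were at 0.08, 0.24 and 0.18, and Jun and Fos, of the AP-1 family, at 0.09 and 0.14. Prdm1 was detected in 12 cells and Eomes in 3, so they did not enter. With Srgn, 4 of the 25 reached 0.3, against 4.08% of all genes: Il2rg (0.36), Zeb2 (0.33), Myc (0.31) and Id2 (0.31). With TPM rescaled per cell by the median ratio over the 398 genes detected in every cell, 1 of the 25 did.

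Some cytokine genes of the Th2 programme went with Srgn. Of 11 listed genes 8 entered, and 3 reached a rho of 0.3 with Srgn: Areg (0.47), Il4 (0.38) and Il13 (0.33), with a median of 0.24. Over all genes 4.08% reached 0.3 with Srgn, and the median was 0.06. With Gzmb 0 of the 8 reached it, with a median of 0.11. Il4 encodes the cytokine that both drives and marks the Th2 fate. It was detected in 54 cells at a mean of 1954 TPM and had a rho of 0.02 with Gzmb. The count with Srgn was 3 with TPM rescaled or ranks centred by set and 2 given the number of genes detected. Whether the rho values with Srgn and with Gzmb differ was not tested. Of the 9 chemokine genes listed 3 entered, and none reached 0.3 with Srgn or Gzmb.

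Some genes of T cell identity also went with Srgn. Of the 13 genes entered, 4 reached a rho of 0.3 with Srgn, namely Cd2 (0.43), an adhesion receptor, Cd5 (0.36), Cd3d (0.31), a chain of the T cell receptor complex, and Cd6 (0.31). The median was 0.18, against 0.06 over all genes, of which 4.08% reached 0.3. With Gzmb 0 of 13 reached it (median 0.09). Without cells T3_2 and T3_5 the count with Srgn was 2. Of 14 genes of Th2 identity entered, 1 reached 0.3 with Srgn, the chemokine receptor gene Ccr8 (0.36), and 0 with Gzmb. Gata3, the transcription factor that specifies Th2 cells, was detected in 56 cells at a mean of 904 TPM and had rho values of 0.03 with Gzmb and 0.29 with Srgn. Given the number of genes detected, 4 of the 14 reached 0.3 with Srgn, which were Ccr8 (0.36), Gata3 (0.35), Irf4 (0.31) and Ecm1 (0.30). Cd4, the marker of the starting cells, was detected in 37 cells.

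Of 23 activation genes, 3 reached a rho of 0.3 with Srgn (median 0.19): Tnf (0.38), the receptor gene Tnfrsf9 (0.34) and Myc (0.31). Of all genes, 4.08% reached 0.3 with Srgn (median 0.06) and 3.66% with Gzmb (median 0.05). With Gzmb, 1 of 23 reached 0.3, Egr2 (0.30), a transcription factor induced through the T cell receptor. None of the 23 did with TPM rescaled, with centred ranks, given the number of genes detected, or without cells T3_2 and T3_5. Cell cycle genes had medians slightly below 0, which moved lower once the number of genes detected was taken into account. Of 21 G1/S genes, 1 reached 0.3 with Gzmb, the replication origin gene Orc1 (0.45), and their median was -0.06. Of 26 G2/M genes, 0 did and Cenpe (-0.31) was below -0.3, with a median of -0.03. With Srgn, Hmgb2 (-0.31) was below -0.3. Given the number of genes detected, the median partial rho with Gzmb was -0.15 for the G1/S genes and -0.15 for the G2/M genes. With Srgn the G2/M median was then -0.18, and the lowest of these genes were Hmgb2 (-0.45) and Cenpe (-0.41). The medians over all genes were then 0.00 for both. Over all genes, 13 then lay at -0.4 or less with Gzmb and 13 with Srgn, against 3 with each before. Of 22 genes of the unfolded protein response, which deals with load on the secretory pathway, 0 reached 0.3 with Gzmb (median -0.06) or Srgn (median -0.01), and Atf4 (-0.48) lay below -0.3 with Srgn. Of 14 housekeeping genes 0 reached 0.3 with Gzmb and B2m (0.31) did with Srgn. With TPM rescaled, given the number of genes detected, or without cells T3_2 and T3_5, 0 of the 14 did with Srgn. With ranks centred by set, 2 of the 14 did.

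Over all lists, 7 of 195 entered genes (3.59%) reached a rho of 0.3 with Gzmb, near the 3.66% of all genes that did. With Srgn, 16 of 196 (8.16%) reached it, against 4.08% of all genes. At -0.3 or less there was 1 list gene with Gzmb and 2 with Srgn, against 0.753% and 0.525% of all genes. Members of 1 list are not independent of each other, and these shares carry no test.

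**Figure D5:**
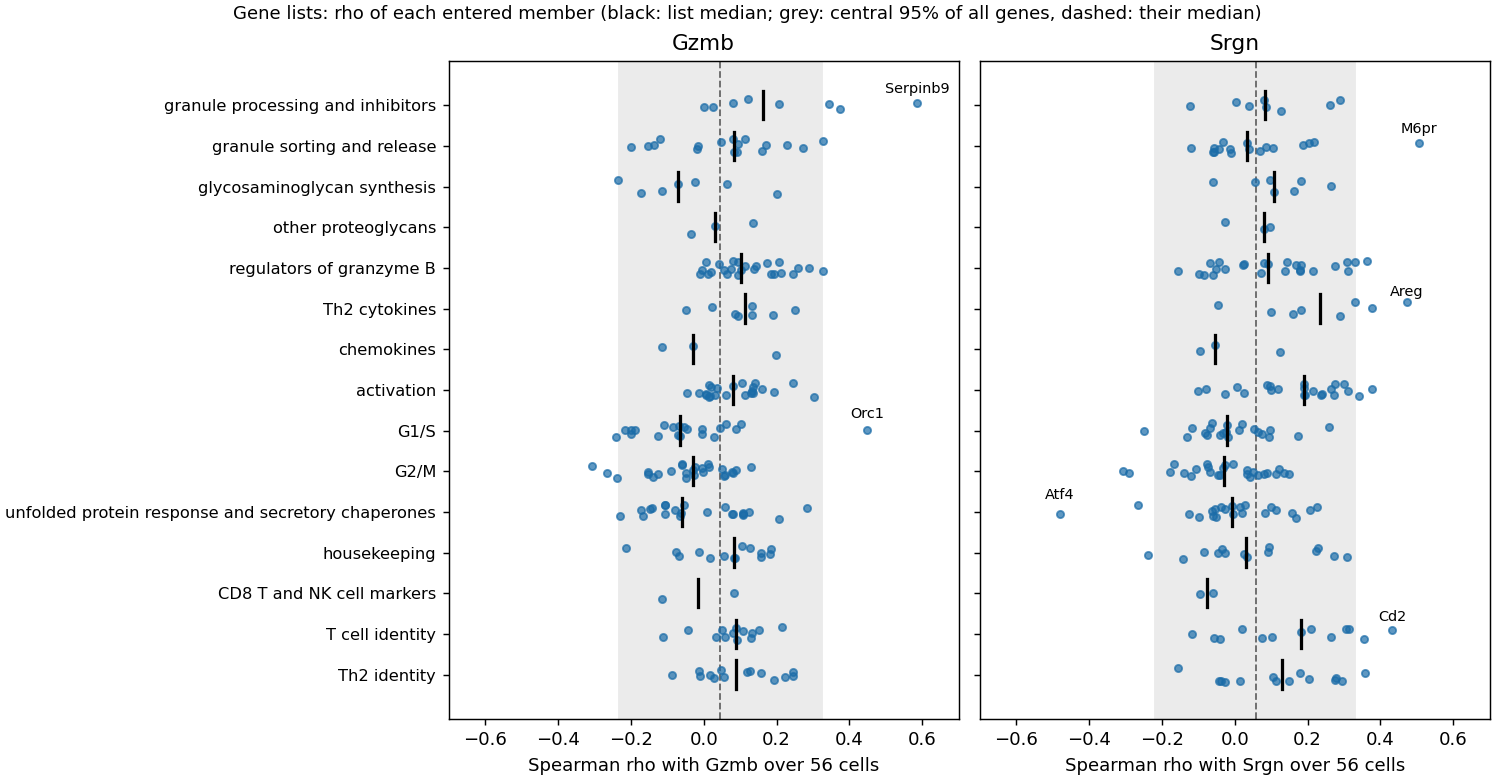
Spearman rho over 56 cells of each list gene that was detected in at least 20 cells, with Gzmb (left) and Srgn (right), 1 row per list. Black bars mark list medians, the grey band the central 95% of all 5713 genes and the dashed line their median, and genes at 0.4 or more or -0.4 or less are named.

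Markers of other cells that make granzymes or serglycin were at 0 or low in most cells and high in a few. Of 14 markers of CD8 T and natural killer cells, 4 were in the table. Cd8b1 was detected in 1 cell, T3_5, at 24.0 TPM, and Gzma in 13 cells. Nkg7, a granule membrane protein gene, was detected in 24 cells at a mean of 246 TPM, with 5592 TPM in T1_7, a cell with 6978 TPM of Gzmb. Of its 24 cells, 16 had Gzmb at 100 TPM or more, where 15.9 would fall if detection were independent. The rho of Nkg7 with Gzmb was 0.08. The chemokine gene Xcl1 was detected in 32 cells at a mean of 100.5 TPM, with 2786 TPM in T2_8. Their summed level ranged from 0 to 5595 TPM (median 13.0 TPM), and the rho of the sum was 0.20 with Gzmb and -0.19 with Srgn. Of 14 mast cell and basophil markers, Cpa3 was detected in 5 cells and Hdc in 2, and their sum reached at most 160 TPM. Of the myeloid markers Cd68 was detected in 10 cells and of the B cell markers Cd74 in 32 cells. The other markers were not analysed here. Cell T3_5, with 1947 TPM of Gzmb, was the only one of the 37 cells with Gzmb at 100 TPM or more that held Cd8b1. Of the genes of the T cell receptor complex, Cd3d and Cd3e were detected in each of the 56 cells, Cd3g in 54 and Cd247 in 48. The other T cell identity genes ran from 27 cells (Cd6) to 56 cells (Cd2 and Lat).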

How the data were processed

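Single-cell RNA sequencing values for 56 cells came in 1 table of 10565 genes. The deposited values are a score, since the authors rounded TPM to whole numbers (column sums 999202 to 999914). Per the submitters' processing notes, FastQC, Bowtie 0.12.2 and Cufflinks were used with build mm9 (steps not given in the sources used here). Depth cannot be recovered from TPM, so precision per cell is unknown, and 55.4% of values were 0. No 2 of the cells (1540 pairs) had identical values.

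The members and gene lists were chosen with earlier results of these data known. Detection was 1 TPM or more, with exact Clopper-Pearson 95% intervals for counting error only. Excess variation was computed for genes detected in 10 or more cells and rho for those in 20 or more, with Python 3.11.15, NumPy 2.4.6, SciPy 1.17.1 and pandas 2.3.3, and scripts were tested on simulated data. As the cells are 1 sample, no test was run.

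Named were the 10 genes of highest and 5 of lowest rho with each gene, 3 neighbours on each side in mean level, and members of the 19 lists by level and rho. List genes behind small counts were named after their values were seen. Alternatives were other detection limits, pseudocounts, rescaled TPM, ranks centred by set, partial rho, and leaving out cells or sets. Symbols were compared with GRCm38.p6 (9501 current, 949 older, 115 unmatched), which gave names and promoter sequence and no coordinates for the mm9 values. The bulk library of 10000 pooled cells was not used here.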

Additional observations from a re-analysis of the deposited data

How the results depend on the processing

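Of the summary results for Gzmb and Srgn, 42 alternative values moved, all given here, while 118 kept their side of the threshold or stayed within the spread. Gzmb was detected in 73.2%, 69.6% and 66.1% of cells at limits of 5, 10 and 100 TPM. The mean of Gzmb ranged from 2694 to 3823 TPM and that of Srgn from 10342 to 12993 TPM, and the median of Gzmb from 939 (rescaled TPM) to 2119.5 TPM (without T3). The excess of Gzmb stayed between 2.84 and 3.96. That of Srgn, never past 1 or -1, ran from -0.17 to 0.62 and was below 0 in 4 alternatives: -0.026 with a wider window, -0.17 and -0.15 as SD of log2(TPM + 1) and log2(TPM + 10), and -0.047 with rescaled TPM. The relation of Gzmb with Srgn (rho 0.21) gave 0.32 as Pearson's r of log2(TPM + 1), 0.41 without set T2, 0.044 without T3 and 0.061 without T5.

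Counts of genes past a rho limit moved with the setting. Genes at 0.4 or more with Gzmb (31) were 15 when detected in at least 40 cells, 48 by Pearson's r, 18 by partial rho, and 52, 89, 56 and 77 without T1, T2, T4 and T5. Those at -0.4 or less (3) were 1 at 40 cells, 10 with ranks centred by set, 13 by partial rho, 6 with rescaled TPM, 10 without cell T3_2, 8, 8, 22 and 6 without T1, T2, T3 and T4, and 10 without cells T3_2 and T3_5. Genes at 0.4 or more with Srgn (40) were 24 at 40 cells, 191 by Pearson's r, 16 by partial rho, 24 with rescaled TPM, and 69, 102 and 100 without T2, T4 and T5. Those at -0.4 or less (3) were 1 at 40 cells, 19 by Pearson's r, 13 by partial rho, 8 with rescaled TPM, 8 without cell T3_2, 6, 9, 16 and 7 without T1, T2, T3 and T4, and 8 without cells T3_2 and T3_5. List genes at 0.3 or more with Gzmb (7) were 4 without those 2 cells. Leaving out a set also leaves fewer cells. What moved the counts was not tested. Leaving out both cells together was chosen after seeing the data.

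Serpinb9 was the gene of highest rho with Gzmb in 9 of 14 alternatives and among the 4 highest in the 13 it entered (rho 0.51 to 0.65); at 40 cells it was not entered. Cd53 stayed among the 6 highest for Srgn in 14 of 14. M6pr was among the 10 highest in 11 of 14 and ranked as low as 56th, with a rho of 0.44 to 0.55. Of the 10 highest genes, 4 to 10 were shared with the alternatives for Gzmb and 3 to 10 for Srgn. No paired analysis was possible because all cells belong to 1 condition. TPM holds no depth, so what depth limits cannot be computed, and a level of a few TPM cannot be told apart from 0.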
